A study of Mus musculus with 6 samples.

Results

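The BCL2 family decides whether the outer mitochondrial membrane stays intact or is opened during apoptosis, and 10 of its genes were followed here in mouse astrocytes after transfection with miR-29 microRNA precursors. The genes were Mcl1, Bcl2, Bcl2l1, Bcl2l2, Bax, Bcl2l11, Bbc3, Bmf, Hrk and Pmaip1, taken by name from the 18353 genes that could be named on the array. A probe was assigned to a member where its RefSeq accession, without the version, belonged to that gene, and this gave 17 probes, which were kept apart. Of these, 15 were well above background on all 6 arrays and were tested. The other 2, 1 of the 3 Bmf probes and the single Hrk probe, were too dim.

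The family works through 3 kinds of protein. Pro-survival members (MCL1, BCL2, BCL-XL from Bcl2l1, and BCL-W from Bcl2l2) bind and restrain the effectors BAX and BAK, which otherwise form pores that release cytochrome c and start the caspase cascade. BH3-only members (BIM from Bcl2l11, PUMA from Bbc3, BMF, HRK and NOXA from Pmaip1) sense stress and occupy the pro-survival proteins, NOXA mainly MCL1. As background from other systems, Mcl1 has been described as a target of miR-29, and in maturing neurons several BH3-only genes have been described as targets of miR-29b.

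The cells were primary astrocytes bought as a culture, prepared from the cerebral cortex of C57BL/6 fetuses at embryonic day 18. The 3 miR-29 arrays came from cells given a mixture of the 29a, 29b and 29c precursors of the miR-29 family at 1 to 2 to 1, and the 3 control arrays from cells given a negative control precursor. Both groups were transfected 3 weeks after plating at 80 nM with the same lipid reagent and were harvested after 48 h. Per the labels' protocols, transfection efficiency was above 90%, judged with a fluorescent miR-29 precursor. The arrays of a group are described as extraction replicates, and nothing in the labels places them in separate cultures, so p-values here weigh a difference against the scatter of the arrays only, and that scatter may be technical.

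The transfected family is shown by its mature sequences in mouse (RefSeq, GRCm38.p6), because the 3 isoforms share the seed, bases 2 to 8 in capitals, through which a microRNA finds its messenger RNAs. The miR-29a locus lies at chr6:31062673-31062694 on the minus strand, the miR-29c locus at chr1:195037600-195037621 on the plus strand, and miR-29b is encoded at chr6:31063025-31063047 on the minus strand and at chr1:195037091-195037113 on the plus strand.
mmu-miR-29a-3p: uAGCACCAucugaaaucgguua
mmu-miR-29b-3p: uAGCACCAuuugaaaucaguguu
mmu-miR-29c-3p: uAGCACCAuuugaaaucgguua
The seed AGCACCA was identical in all 3. The transfected precursors carry the human names, and the mature arms are the same in human and mouse.

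Levels are given as the log2 of the processed signal minus the 75th percentile of the same array, so 0 is the level of that percentile and each unit is a doubling. On the 6 arrays, 62.0% to 66.8% of the probes were well above background, 0 spots were saturated, and the signal at the 75th percentile was 473.7 to 625.6. Control replicate 1 shared slide 1 with all 3 miR-29 arrays, whereas control replicates 2 and 3 were on slide 2, so a value within slide 1 rests on 1 control array. All 11 astrocyte markers were well above background, and their summed level was 91.1 to 101.4 times the 75th percentile on the miR-29 arrays and 68.6 to 72.3 times on the control arrays. Markers of fibroblasts, meningeal and mural cells were also present (8 of 9 tested, 575.4 to 625.7 against 363.9 to 410.3 times). Markers of microglia (3 of 7 tested, 3.30 to 3.55 against 4.43 to 5.03 times), of the oligodendrocyte lineage (8 of 9, 6.42 to 6.96 against 7.09 to 11.8), of neurons (8 of 10, 7.08 to 7.27 against 8.92 to 9.53) and of endothelium (4 of 7, 1.87 to 2.00 against 2.20 to 2.61) had lower sums. Some of these listed markers, such as Aif1, Cx3cr1, Ptprc, Mog, Snap25 and Pecam1, did not meet the detection filter. Others had a mean log2 level above the 75th percentile in both groups. On the miR-29 and control arrays these were Tmem119 (1.74 and 2.18), Mag (2.32 and 2.85), Stmn2 (1.07 and 2.03) and Flt1 (0.80 and 1.16), among others. The part of these cell types in the results was not tested, and fewer cells of a type and less RNA per cell cannot be told apart.

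After miR-29, 3 of the 4 pro-survival genes were lower (Mcl1, Bcl2l1 and Bcl2l2), while Bcl2 was higher. Of the 5 BH3-only genes 1, Pmaip1, rose, and it rose 3.09-fold. In all, 7 of the 15 tested probes were lower (46.7%) and 3 higher (20%) at an adjusted p under 0.05 in limma, with n = 3 arrays per group. Over all 26428 tested probes, 23.5% were lower and 34% higher (57.5% in either direction), so the members' share of lower probes was above the background and their share of higher probes below it. The median log2 fold change, miR-29 minus control, was -0.24 over the 15 probes and 0.061 over all tested probes. Changes of at least 2-fold were found in 2 lower and 1 higher member probes, against 3.57% lower and 3.17% higher over all probes. For 10 of the 15 member probes the groups did not overlap, against 65.8% of all probes. With 1 probe per gene, the brightest, 4 members were lower and 2 higher, 3 did not pass the test, and the background was 23.6% lower and 34.1% higher of all genes and accessions (57.7% in either direction).

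The split between lower and higher depends on the scaling. Scaled to the 6 of 10 spike-in RNA types detected on every array, the median of all probes moved by -0.24, and 38.5% of all probes were lower and 14.9% higher (53.4% in either direction). Of the calls over all probes, 59.2% were higher in the main scaling, 27.97% with the detected spike-in types and 33.8% with all spike-in spots. Among the member probes, 8 were then lower and 2 higher with either spike-in scaling.

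**Figure D1:**
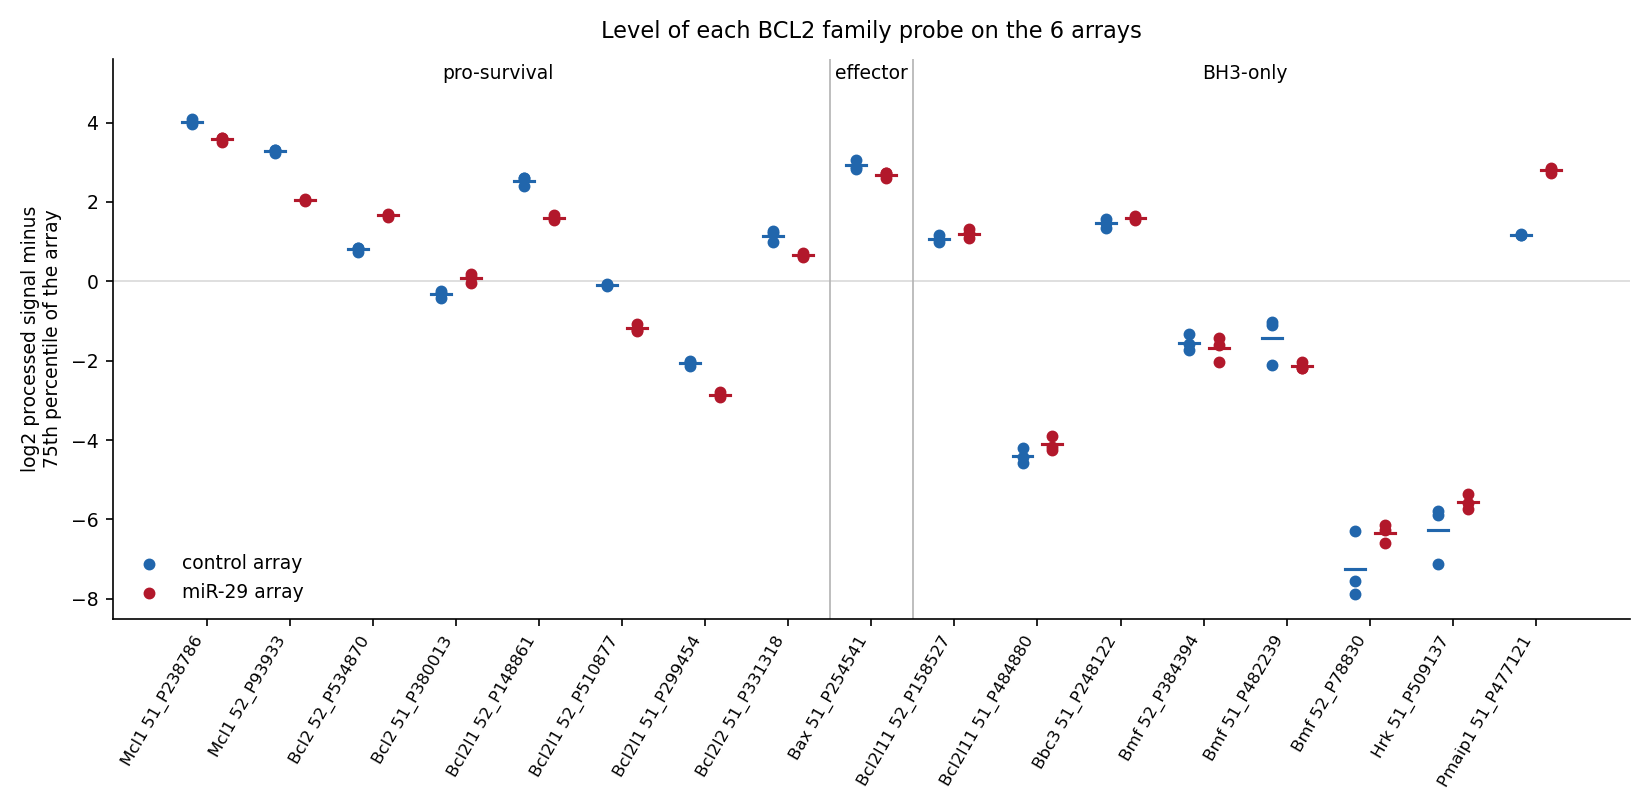
Level of each of the 17 probes on every array (y axis, log2 processed signal minus the 75th percentile of the array; control arrays blue, miR-29 arrays red, bars are group means), ordered by role; probe names are shortened by their first 2 characters. The miR-29 arrays lie apart from the control arrays for all 8 pro-survival probes, and Pmaip1 is at 2.80 against 1.17.

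Mcl1 encodes a short-lived pro-survival protein, and both of its probes were lower after miR-29, by different amounts. The brighter, A_51_P238786, stood at 4.09, 4.01 and 3.97 on the control arrays and 3.62, 3.62 and 3.52 on the miR-29 arrays. It fell by 0.44 (SE 0.0576, adjusted p = 0.00125 in limma), or to 73.8% of the control level. The second probe, A_52_P93933, stood at 3.22, 3.30 and 3.32 on the control arrays and 2.02, 2.05 and 2.08 on the miR-29 arrays. It fell by 1.23 (SE 0.051, adjusted p = 3.8e-05), to 42.7% of the control level. The groups did not overlap with either probe, and both kept their call and direction under every alternative in which they were tested. Within slide 1 the log2 fold changes were -0.50 and -1.17. The responses of the 2 probes differed by 0.79 on the log2 scale (exact permutation test, two-sided, p = 0.1, the smallest that 3 against 3 arrays can give; adjusted p = 0.14 over the 7 probe pairs compared). The spread of that difference between arrays was an SD of 0.083 in the miR-29 group and 0.11 in the controls. The files used here do not place the probes on the transcript.

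Bcl2l1, the gene of BCL-XL, was the most uniformly lower member, with 3 probes that gave similar falls. Its brightest probe, A_52_P148861, is printed 10 times on each array (1 outlier spot was left out on 2 arrays), and it stood at 2.41, 2.60 and 2.61 on the control arrays and 1.60, 1.55 and 1.67 on the miR-29 arrays. This is a fall by 0.93 (SE 0.0729, adjusted p = 0.00018 in limma), to 52.3% of the control level. The probe A_52_P510877 fell by 1.09 (SE 0.0614, adjusted p = 6.63e-05), and A_51_P299454 by 0.80 (SE 0.0623, adjusted p = 0.000178). No array of 1 group overlapped the other group for any of the 3 probes. Within slide 1 they gave -0.81, -1.11 and -0.72. Their responses differed from each other by 0.13 to 0.29 on the log2 scale, less than those of the Mcl1 probes. Each of the 3 pairs had the same exact permutation p as the Mcl1 pair (p = 0.1, two-sided, adjusted p = 0.14). With normexp background correction, whose offset of 50 shrinks the fold changes of dim probes, the dimmest, A_51_P299454, gave -0.46, still past the test.

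Bcl2l2, the gene of BCL-W, was measured by 1 probe at 1.26, 0.98 and 1.22 on the control arrays and 0.63, 0.71 and 0.62 on the miR-29 arrays. Control replicate 2 was the lowest control, and it still lay above every miR-29 array. The gene fell by 0.50 (SE 0.0841, adjusted p = 0.00332 in limma), and by 0.60 within slide 1. It remained lower and past the test in all 19 alternatives.

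Bcl2 itself, the founding pro-survival gene, was higher. The 2 probes are annotated to different RefSeq transcripts, and whether each reads only that transcript was not examined. The probe for NM_009741, A_52_P534870, also printed 10 times per array, stood at 0.74, 0.85 and 0.84 on the control arrays and 1.68, 1.71 and 1.61 on the miR-29 arrays. It rose by 0.86 (SE 0.0564, adjusted p = 0.000104 in limma), which is 1.81-fold, and it rose by 0.62 with spike-in scaling. The probe for NM_177410, A_51_P380013, stood at -0.25, -0.30 and -0.43 on the control arrays and 0.19, 0.12 and -0.044 on the miR-29 arrays. Its log2 fold change of 0.42 (SE 0.0841, adjusted p = 0.00686) did not pass under a slide block (0.33, adjusted p = 0.0634) or with spike-in scaling (0.18, adjusted p = 0.0611). All miR-29 arrays lay above all control arrays for both probes. The responses of the 2 probes differed by 0.44 (exact permutation p = 0.1, two-sided).

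Bax, a pore-forming effector, was slightly lower. Its probe, with 10 spots per array, stood at 3.05, 2.89 and 2.83 on the control arrays and 2.73, 2.72 and 2.60 on the miR-29 arrays. The highest miR-29 array lay below the lowest control array. The log2 fold change was -0.24 (SE 0.078, adjusted p = 0.0399 in limma), close to the threshold, and -0.37 within slide 1. The call was lost with median centring (adjusted p = 0.113), without a filter (adjusted p = 0.0908), and when any array other than control replicate 3 was left out. Without miR-29 replicates 1, 2 or 3 the log2 fold change was -0.26, -0.26 and -0.19, and without control replicates 1 or 2 it was -0.17 and -0.25, with adjusted p from 0.058 to 0.113.

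**Figure D2:**
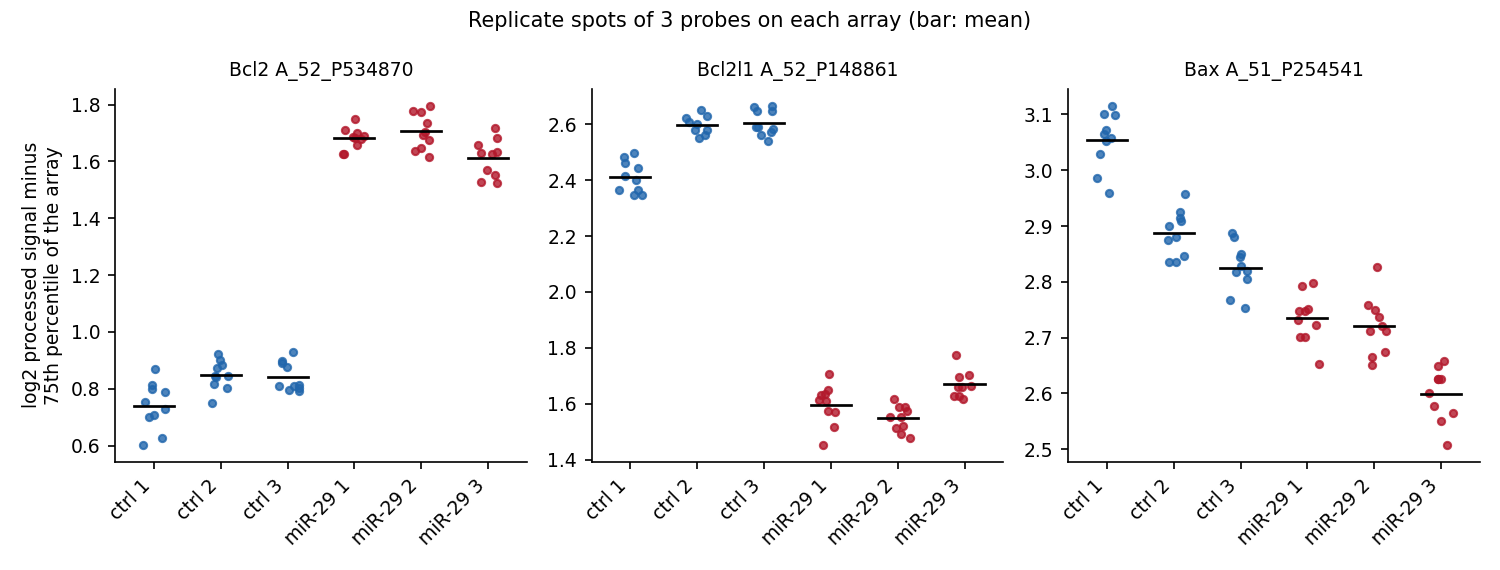
Every replicate spot of the Bcl2, Bcl2l1 and Bax probes that are printed 10 times per array (y axis, log2 processed signal minus the 75th percentile of the array, each panel with its own range; control arrays blue, miR-29 arrays red, bar is the array mean). For Bcl2 the lowest miR-29 spot is at 1.52 and the highest control spot at 0.93, and for Bax the spots of the groups run into each other.

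The replicate spots show how much of this spread lies within an array. The SD of the log2 spot values on 1 array was 0.038 to 0.083 for Bcl2, 0.033 to 0.071 for Bcl2l1 and 0.041 to 0.052 for Bax. For Bcl2l1 the highest spot on any miR-29 array was at 1.77 and the lowest on any control array at 2.35. For Bax, spots of the miR-29 group reached 2.83, and spots of the controls went down to 2.75. Spots of 1 array are repeats of a single hybridisation and were averaged before the test.

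Pmaip1, the gene of the MCL1-binding BH3-only protein NOXA, had the largest change of the 9 tested genes. It stood at 1.15, 1.20 and 1.17 on the control arrays and 2.85, 2.74 and 2.82 on the miR-29 arrays. It rose by 1.63 on the log2 scale (SE 0.052, 95% interval 1.4999 to 1.753, adjusted p = 2.35e-05 in limma). Of all tested probes, 99.6% had a lower log2 fold change. The rise was 1.65 within slide 1, 1.39 with spike-in scaling and 1.60 to 1.66 when single arrays were left out.

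None of the other BH3-only probes passed the test. The brighter probe of Bcl2l11, the gene of BIM, stood at 1.16, 1.07 and 0.99 on the control arrays and 1.21, 1.32 and 1.08 on the miR-29 arrays, which overlap. Its log2 fold change was 0.13 (95% interval -0.064 to 0.33, adjusted p = 0.2 in limma) and -0.11 with spike-in scaling. The dim second probe of Bcl2l11 gave 0.30 (95% interval -0.007 to 0.60, adjusted p = 0.0844), and passed without control replicate 2 (0.39, adjusted p = 0.0448). It gave 0.058 with the detected spike-in types. With normexp it gave 0.057, but its processed signals of 22.1 to 36.9 lie below the normexp offset of 50. Bbc3, the gene of the p53-responsive protein PUMA, stood at 1.58, 1.47 and 1.34 on the control arrays and 1.55, 1.64 and 1.59 on the miR-29 arrays. Its log2 fold change was 0.13 (95% interval -0.047 to 0.31, adjusted p = 0.17), 0.016 within slide 1 and -0.11 with spike-in scaling. It passed without control replicate 1 (0.19, adjusted p = 0.043). For Bbc3 and the brighter Bcl2l11 probe, the intervals exclude, in this scaling, changes as large as those of Bcl2l1 or Bcl2.

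Bmf encodes a BH3-only protein linked to the cytoskeleton, and its probes did not give 1 answer. The brightest, A_52_P384394, stood at -1.72, -1.33 and -1.59 on the control arrays and -1.61, -1.42 and -2.03 on the miR-29 arrays, and its log2 fold change was -0.14 (95% interval -0.57 to 0.29, adjusted p = 0.513 in limma), with -0.38 for the detected spike-in types and -0.31 for all spike-in spots. The probe A_51_P482239 stood at -2.12, -1.02 and -1.11 on the control arrays and -2.17, -2.04 and -2.18 on the miR-29 arrays. The control array of slide 1 lay among the miR-29 arrays of that slide, and both controls of slide 2 lay about 1 unit higher. The log2 fold change was -0.71 (adjusted p = 0.0762), -0.011 within slide 1 and -1.06 without control replicate 1 (adjusted p = 0.00027). Slide and group cannot be told apart for this probe on slide 2, which holds control arrays alone. The probe was past the test with the detected spike-in types (-0.95, adjusted p = 0.0372), median centring (-0.70, adjusted p = 0.0385) and normexp (-0.51, adjusted p = 0.0442). The remaining probe, A_52_P78830, stayed below the detection criterion on every array, at processed signals of 2.52 to 7.86.

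Hrk, a BH3-only gene best known from neurons, was barely detected. Its processed signal was 7.96, 8.55 and 4.51 on the control arrays, none of them well above background, and 10.01, 13.5 and 10.7 on the miR-29 arrays, of which replicates 1 and 2 were. Set against the dimmest detected probe of each control array, it was 1.13-fold higher in the main scaling, with no test. This value divides the mean over all 3 miR-29 arrays, 1 of them not well above background, by a control level. In that level each control array counts at its dimmest probe well above background, or at Hrk itself where that is brighter. It is not a lower limit with the detected spike-in types, which moved the median of all probes by -0.24 on the log2 scale.

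**Figure D3:**
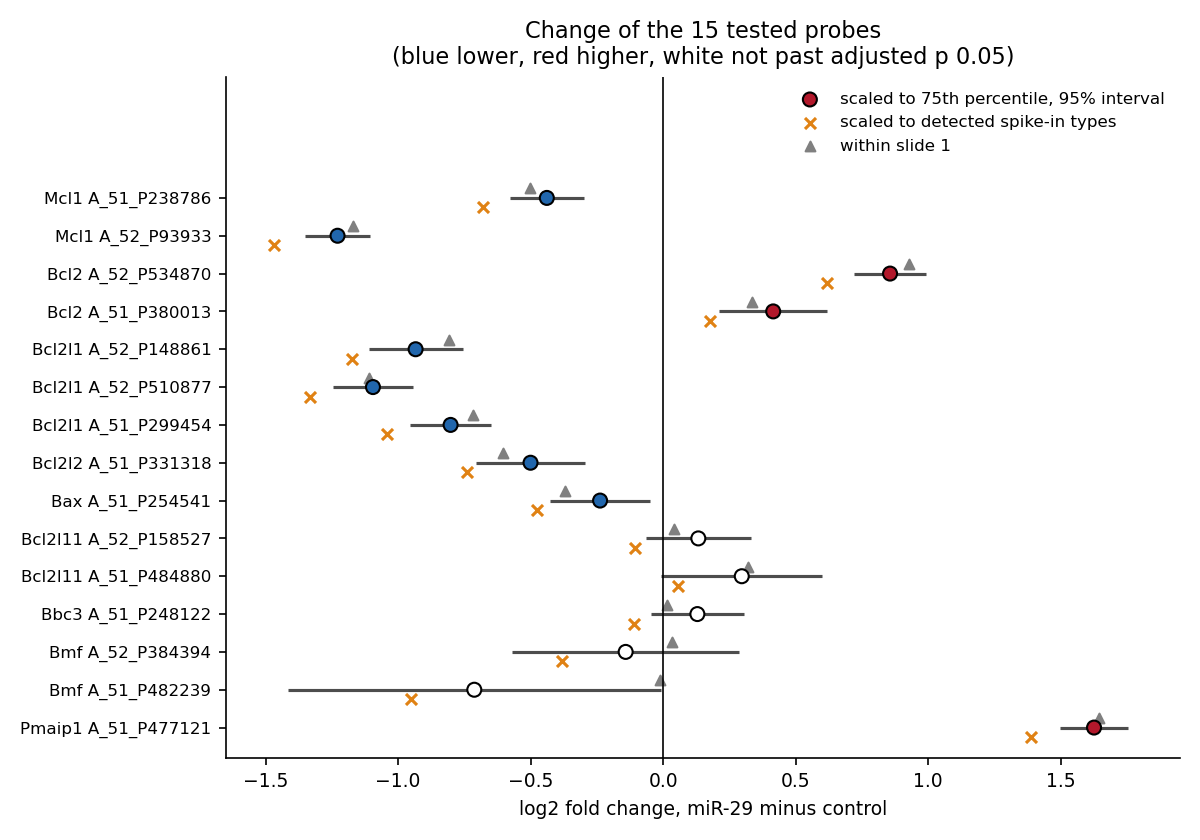
Log2 fold change, miR-29 minus control, of the 15 tested probes (circles with 95% intervals, filled where the adjusted p was under 0.05; crosses, scaled to the detected spike-in types; triangles, within slide 1). Pmaip1 is at 1.63, both Bcl2 probes are at 0.42 and 0.86, the other 6 pro-survival probes lie between -0.44 and -1.23, and the A_51_P482239 probe of Bmf is at -0.71 overall and -0.011 within slide 1.

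Among the other BCL2 family genes, 9 of the 15 listed were tested by their brightest probe, of which 1 was lower, 2 higher and 6 not past the test (median -0.10; 3 lower and 2 higher with spike-in scaling, and 3 lower without control replicate 1). Over all genes and accessions, 23.6% were lower and 34.1% higher, and with spike-in scaling 38.5% and 14.9% of all probes. The lower family gene was Bak1, which encodes the second pore-forming effector. It fell by 1.59 (SE 0.0898, adjusted p = 6.78e-05 in limma), and by 1.77 within slide 1. Its control arrays averaged 1.16 ± 0.159 and its miR-29 arrays -0.43 ± 0.0575 (SD, n = 3). Its dimmer probe gave -0.46 (adjusted p = 0.0317) and -0.13 within slide 1. That call did not hold under a slide block (adjusted p = 0.171) or without any single array other than control replicate 1 (adjusted p from 0.065 to 0.0951). Bid, a BH3-only protein cleaved by caspase-8, rose by 0.50 (adjusted p = 0.00209) and Bcl2l12 by 0.57 (adjusted p = 0.00179), and both stayed higher with spike-in scaling (0.26 and 0.33). The log2 fold changes of Bad, Bcl2l13, Bcl2l15, Bnip3 and Bnip3l were -0.20, -0.13, 0.25, 0.23 and -0.10, none past the test. Bad and Bcl2l13 were lower with the detected spike-in types (-0.44 and -0.36, adjusted p = 0.0201 and 0.0152 in limma). With spike-in scaling Bcl2l15 was at 0.016 and Bnip3 at -0.010, Bcl2l15 was at -0.024 within slide 1, and Bnip3l was at -0.0022 without miR-29 replicate 1. Bcl2l14 had -0.87, also not past the test, and this rests on 1 array: miR-29 replicate 1 was at -4.75, the other 5 arrays were at -2.42 to -2.06, and the value without that array was -0.025. Bnip3l, a mitophagy receptor gene, had a dimmer probe that was lower (-0.40, adjusted p = 0.0024). Bik, Bcl2a1b and Bcl2l10 were not well above background on any array.

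Downstream of the mitochondria, 9 of 18 caspase, apoptosome and inhibitor genes were lower and 4 higher (median -0.15). The shares over all genes and accessions were 23.6% lower and 34.1% higher. Spike-in scaling gave 10 lower and 0 higher, beside 38.5% and 14.9% of all probes. Of the 18 genes, 2 were higher without miR-29 replicate 1 or control replicate 2. Apaf1, the scaffold of the apoptosome, fell by 0.93 (SE 0.0444, adjusted p = 4.59e-05 in limma), although its dimmest probe gave 0.021 (-0.22 with spike-in scaling). The caspase inhibitor gene Xiap fell by 0.46 (adjusted p = 0.00116). The initiator caspase gene Casp9 and the cytochrome c gene Cycs had 0.14 each (adjusted p = 0.062 and 0.0519), and both were below 0 with spike-in scaling (-0.099 and -0.10). The 2 dimmer Cycs probes were higher (0.23 and 0.20, adjusted p = 0.0117 and 0.0152), and neither was with spike-in scaling (-0.0078 and -0.037). The mitotic inhibitor-of-apoptosis gene Birc5, named after its values were seen, fell by 1.21.

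In the death receptor pathway, 7 of 11 genes were lower and 1 higher (median -0.31), while spike-in scaling gave 9 lower and 0 higher. Over all genes and accessions the shares were 23.6% lower and 34.1% higher, and with spike-in scaling 38.5% and 14.9% of all probes. Without control replicate 1, 2 of the 11 genes were higher. The receptor gene Fas fell by 0.31 (adjusted p = 0.00539), its adaptor Fadd by 0.42 (adjusted p = 0.0015) and the initiator caspase gene Casp8 by 0.25 (adjusted p = 0.0386 in limma). The Casp8 call was lost without miR-29 replicate 1 (-0.23) or 2 (-0.21) or control replicate 1 (-0.21) or 3 (-0.24), with adjusted p from 0.0802 to 0.119, and under a slide block (-0.33, adjusted p = 0.0598). Cflar, which encodes the caspase-8 inhibitor c-FLIP, had -0.22 (adjusted p = 0.0716). This probe passed under a slide block (-0.40, adjusted p = 0.00831), with the detected spike-in types (-0.46, adjusted p = 0.00302), with normexp (-0.24, adjusted p = 0.0352) and without control replicate 3 (-0.30, adjusted p = 0.0327). The dimmest Cflar probe was lower (-0.25, adjusted p = 0.0135), but not with normexp (-0.11, adjusted p = 0.167). Its call was also lost without miR-29 replicate 1 or 2 (adjusted p = 0.0533 and 0.0512). The remaining Cflar probes had 0.071 and -0.13 (adjusted p = 0.614 and 0.215), so the probes differed in sign. With the detected spike-in types these remaining probes gave -0.17 and -0.36 (adjusted p = 0.133 and 0.0137). The TRAIL receptor gene Tnfrsf10b had 0.17 (adjusted p = 0.0851; -0.066 with spike-in scaling).

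Of 15 tested upstream regulators of the family, 7 were lower and 2 higher (median -0.12), and spike-in scaling gave 10 lower and 1 higher. The shares over all genes and accessions were 23.6% lower and 34.1% higher, and with spike-in scaling 38.5% and 14.9% of all probes. Without control replicate 2, 4 of the regulators were lower, and 1 was higher without any single array other than control replicate 1. The brightest probe of the p53 gene Trp53 had -0.83 (adjusted p = 0.0299 in limma), with controls at 2.05 ± 0.531 (SD, n = 3), and -0.22 within slide 1, while its other probe gave 0.098 (-0.14 with spike-in scaling). The Trp53 call was lost without any single array other than control replicate 1, at -0.84 to -0.66 (adjusted p from 0.0733 to 0.0895). Trp73, a p53 relative, fell by 2.12 (SE 0.341, adjusted p = 0.00278), and by 1.28 within slide 1. Its control array on slide 1 stood at -0.30, and those on slide 2 at 0.98 and 0.93. For the brightest Trp53 probe the same control arrays stood at 1.44, 2.40 and 2.31. Slide and group cannot be told apart on slide 2 for these probes either. The stress-induced factor gene Ddit3, which encodes CHOP, fell by 0.30 (adjusted p = 0.0232), not past the test without miR-29 replicate 3 (-0.23, adjusted p = 0.0539) or control replicate 2 (-0.30, adjusted p = 0.061). The cell cycle factor gene E2f1 had -0.050 (adjusted p = 0.42), and was lower with the detected spike-in types (-0.29, adjusted p = 0.0102). Foxo3 was below the detection criterion on all arrays. Beside these values, Pmaip1 and Bbc3, which p53 can both induce, had 1.63 and 0.13.

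**Figure D4:**
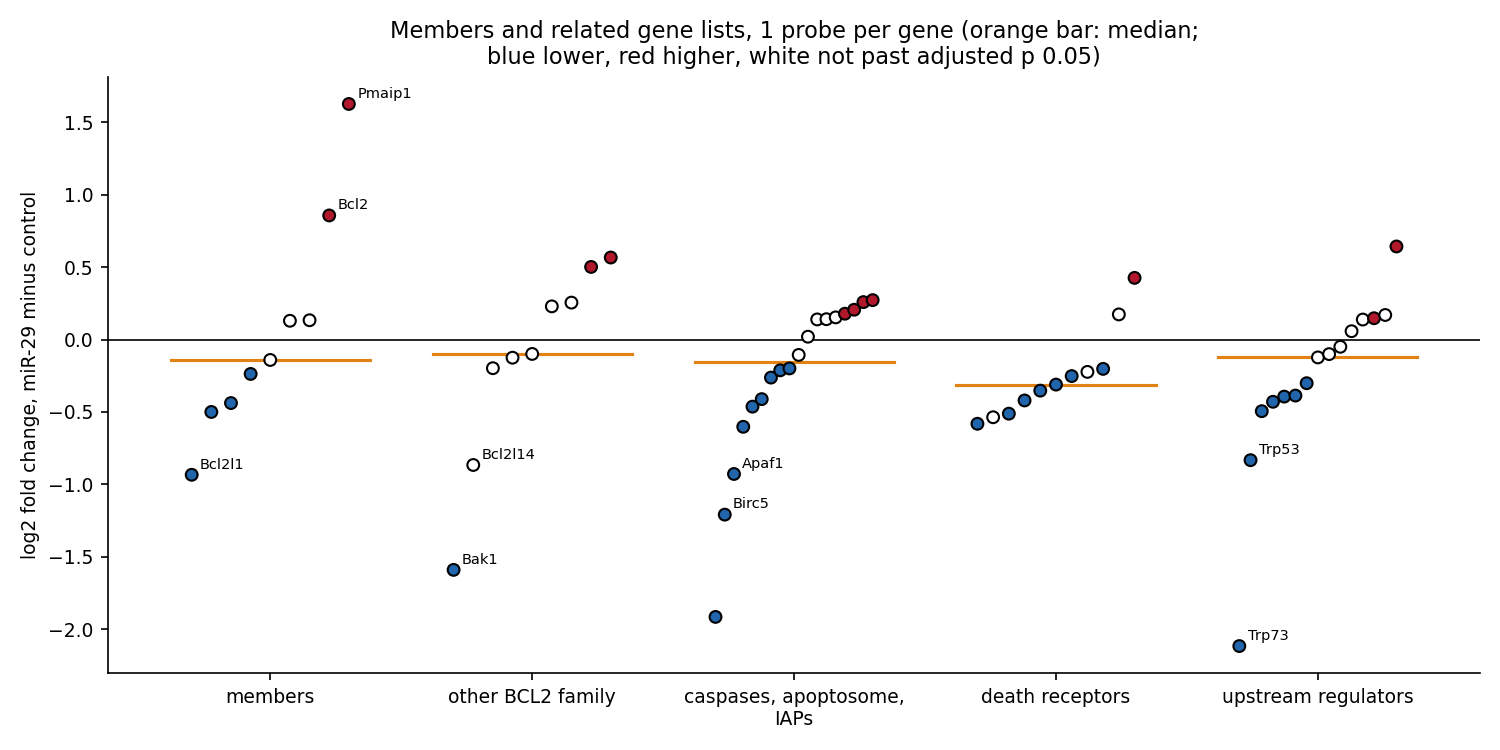
Log2 fold change, miR-29 minus control, of each gene by its brightest tested probe, for the 9 tested members and 4 lists of related genes (blue lower and red higher at adjusted p under 0.05, white not past it; orange bars are list medians; some of the genes named in the text are labelled). The medians lie between -0.31 and -0.10, and Pmaip1 at 1.63 and Bcl2 at 0.86 lie highest.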

How the data were processed

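Each of the 6 samples was hybridised to a one-colour Agilent Whole Mouse Genome array. Per the file headers, Agilent Feature Extraction 10.7.3.1 (10.7 in the submitters' processing notes) gave a background-subtracted processed intensity on a linear scale. In the authors' deposited series table, each array's intensity is multiplied by a single factor (2.63 to 3.43), with array medians of 149.3, 155.4 and 148.8 (miR-29) and 146.3, 164.8 and 162.2 (control). Its scale is linear and uncentred. How the factor was set is unknown here.

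Processed signals were floored at 1 and log2-transformed, outlier spots were removed, spots of a probe were averaged, and the array's 75th percentile over 41174 non-control probes was subtracted. A probe was kept if either group had it well above background on all its 3 arrays (26428). RefSeq accessions named 26933 probes through the GRCm38.p6 table, whose gene coordinates were not used because the array design is on mm9, and 14241 matched no gene. Groups were compared in R 4.3.3 with the moderated linear model of limma 3.58.1 (lmFit, eBayes). Tests were two-sided, and p-values were adjusted over all kept probes by Benjamini-Hochberg. The procedure was tested on simulated data. The members and gene lists were chosen with earlier results of these data known. Named were all members, the other tested BCL2 family genes and the first 5 genes of each further list as written, and exceptions are said to be so. Some listed genes are counted but not reported singly here. The number of arrays limits the precision.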

Additional observations from a re-analysis of the deposited data

How the results depend on the processing

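The alternatives were other scalings (quantile, median, detected or all spike-ins), normexp, the deposited table, no or a stricter filter, another variance model, the replicate number or slide as a block, slide 1 alone, 1 probe per gene, and each array left out. Both Mcl1 probes, all 3 Bcl2l1 probes, Bcl2l2, Pmaip1 and the brighter Bcl2 probe kept their direction and call in each alternative in which they were tested. The sign turned for Bbc3 (-0.11 with detected and -0.043 with all spike-ins), for the brighter Bcl2l11 probe (-0.11 and -0.040) and for the brightest Bmf probe (0.033 with the slide block and within slide 1, 0.028 without miR-29 replicate 3, with -0.27 as the lowest value when single arrays were left out), none of them past the test. With 1 probe per gene 4 member probes were lower. Over all probes, 10163 were lower and 3947 higher with the detected spike-ins (4396 higher with all spike-in spots), against 6205 and 8993. Leaving out single arrays gave 6 to 7 lower and 3 to 4 higher member probes, and 5053 to 7558 lower and 7236 to 9689 higher probes in all.

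Across the alternatives, the count of higher genes ran from 0 to 7 among caspases and inhibitors (4 in the main fit), 0 to 2 among death receptors (1) and 0 to 2 among regulators (2), and that of lower genes from 1 to 3 in the other BCL2 family (1) and down to 3 among regulators (7). The replicate numbers did not meet the criterion for pairing, since deviations of same-numbered arrays correlated at 0.14, 0.099 and 0.27, although each array correlated best with its own number. With the replicate block, 7 member probes were lower and 4 higher (the dim Bcl2l11 probe was added, adjusted p = 0.0198 in limma), and 6242 and 9127 of all probes. Normexp was run on the median signal, chosen after seeing the data, because the mean signal planned for it was not available. It added an offset of 50, so smaller fold changes of dim probes with normexp are partly fixed by the method. Dim probes (Hrk, 1 Bmf probe) are limited by their signal over background.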

Other observations

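Probes of the same gene also differed in size outside the members, and these examples were chosen after their values were seen. The brightest Fas probe had a log2 fold change of -0.31, and a dim probe annotated to its transcript NM_001146708 had -1.81 (SE 0.136, adjusted p = 0.000158 in limma). For Ripk1, a kinase of the death receptor complex, the 3 probes gave -0.58, -0.57 and -1.18, all lower. For Apaf1 they gave -0.93, -0.71 and 0.021. With normexp background correction the differences in size were smaller, but its offset of 50 shrinks the fold changes of dim probes by construction. The Fas probes then gave -0.31 and -0.94, those of Ripk1 -0.48, -0.40 and -0.64, and those of Apaf1 -0.77, -0.24 and -0.047. Whether the probes read different transcript ends was not tested.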
